A study of Mus musculus with 12 samples.

Results

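The 38 genes described here make up the ATF4 branch of the integrated stress response and the unfolded protein response of the endoplasmic reticulum (ER). They were taken from a list of gene symbols, through every probe set annotated to that symbol, or to its current synonym, alone, out of 18193 genes that the array names in this way. Their 87 probe sets, of 45101 on the array, included 80 that passed a filter on low signals, and all 38 genes kept at least 1. The cells were mouse embryonic fibroblasts (MEFs), connective tissue cells grown from embryos, of animals with a kinase-dead form of IRAK4 (KD) or of wild-type animals (WT). IRAK4 is the protein kinase that MyD88 recruits to the receptor of interleukin-1 (IL-1), a cytokine of inflammation. Each genotype had 3 conditions, namely no stimulation over 4 h, 1 ng/ml IL-1b for 1 h, and 1 ng/ml IL-1b for 4 h. All cells grew in the same medium with foetal calf serum. Each of the 6 groups held 2 arrays, described in the series design as biological replicates without naming animals, litters or cultures, so p-values measure the spread between these samples. The unstimulated cells were harvested after 4 h, and the arrays include no 1 h unstimulated group. In the 1 h responses below, time of harvest and IL-1b therefore cannot be told apart. The title of unstimulated WT replicate 1 does not give its genotype, and the array was placed by the design, which has 6 arrays per genotype.

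The unfolded protein response starts from sensors in the ER membrane. PERK (Eif2ak3) phosphorylates the translation factor eIF2, which lowers protein synthesis in general and raises translation of the mRNA of the transcription factor ATF4. ATF4, paired with C/EBP proteins, turns on genes for making and importing amino acids, and kinases that sense amino acid shortage, viral RNA or haem shortage reach it by the same route. IRE1 (Ern1) splices the mRNA of XBP1, and ATF6 is cut free from the membrane; both then act on genes for ER chaperones and for the degradation of misfolded proteins. Splicing of Xbp1, translation of Atf4 and cleavage of ATF6 are not measured by these arrays, which give transcript signals. In fibroblasts, which secrete much collagen, ER chaperones are abundant.

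The arrays were of one platform (Affymetrix Mouse Genome 430 2.0), with signals on a linear scale. Array medians lay between 23 and 28.3 units. All 10 fibroblast markers examined passed the filter, and their summed signal was 30088 to 32562 on the 6 KD arrays and 28405 to 34278 on the 6 WT arrays. Of 7 macrophage markers 6 passed, with a summed signal of 418 to 509 on KD arrays and 173 to 236 on WT arrays. Lyz2 made up most of that sum, with a median of 179, while the medians of the other macrophage markers were 16.7 to 31.05, around the filter. Of 4 neural markers 4 passed, with sums of 540 to 627 on KD arrays and 163 to 296 on WT arrays. Of 4 endothelial markers 2 passed, and of 4 epithelial markers 1. No marker was at 0 on any array, and the part of these other cell type markers in the genotype differences below was not tested. The ratio of 3' over 5' actin probe sets, which rises as RNA is shortened, was 2.86 and 2.83 on the unstimulated KD arrays. It was 2.35 to 2.55 on the other KD arrays and 2.14 to 2.68 on the WT arrays. For Gapdh the ratio was 1.58 and 1.48 on the unstimulated KD arrays, 1.42 to 1.68 on the other KD arrays and 1.23 to 1.63 on the WT arrays. The part of both ratios in comparisons with unstimulated KD cells was not tested. In whole cultures, fewer cells of a type and less RNA per cell cannot be told apart. Transcript levels of Irak4 itself were not analysed here, and loss of kinase activity would not show in its level.

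Fold changes are differences of log2(signal + 8), a scale that understates changes of low signals, with 1 probe set per gene and limma tests adjusted over 12456 genes; a gene counts as changed at an adjusted p under 0.05. Below, the genotype difference is KD minus WT averaged over the 3 conditions, the 1 h and 4 h responses are stimulated minus unstimulated cells of 1 genotype, and the later change is 4 h minus 1 h. Errors after ± are standard errors of the fit, with 2 arrays per group.

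The first question was whether the genotypes differed in these genes. Averaged over the 3 conditions, 0 members were higher and 25 were lower in KD cells, which is 65.8% of the 38, against 13.7% of all tested genes that were lower and 18.2% that were higher (31.8% in either direction). The median over the members was -0.34, and that over all genes was 0.03. The lower members included Ppp1r15a at -1.16 ± 0.11, Slc7a11 at -0.97 ± 0.18, Chac1 at -0.79 ± 0.09, Psat1 at -0.69 ± 0.06 and Cebpg at -0.67 ± 0.08, and all 3 amino acid transporters. The KD mean was below the WT mean in each of the 3 conditions for 26 members, namely the 25 and Trib3, and 21.2% of all genes shared that order. All 6 KD arrays lay below all 6 WT arrays for 7 members, namely Atf4, Xbp1, Ppp1r15a, Chac1, Psat1, Hsp90b1 and Herpud1, and for 4.17% of all genes. This holds for the probe set that stands for each gene. On at least 1 other probe set of Atf4, Xbp1, Psat1, Hsp90b1 and Herpud1 the genotypes overlapped, and Ppp1r15a and Chac1 have no other. All 6 KD arrays lay above all 6 WT arrays for 0 members and for 6.03% of all genes. In 12 fits that each left out 1 array, 23 to 26 members were called, and 22 of the 25 kept the call each time. Of the 25, 20 also kept it under each of the 11 other alternatives (pseudocounts, filters, scalings, probe set rules and fits) in which they were tested, and Atf5, Calr, Ddit3, Pdia4 and Pdia6 lost it under at least 1. Of the 16 with another tested probe set, 12 had another one called lower as well. The sums of macrophage and neural markers given above also separated the genotypes, and their part here was not tested.

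Among unstimulated cells alone, 0 members were higher and 13 were lower in KD than in WT, against 7.38% of all genes higher and 6.94% lower (14.3% in either direction). Of the 7 genes of amino acid and one-carbon synthesis 6 were lower, and of the 11 ER chaperones and folding enzymes 1, Hsp90b1, was lower. Slc7a11 at -0.98 ± 0.31 and Ppp1r15a at -0.96 ± 0.19 had the biggest differences. The 2 unstimulated KD arrays carried the 2 highest actin ratios of the series. Their Gapdh ratios, 1.58 and 1.48, were below those of the 1 h KD arrays (1.65 and 1.68) and of unstimulated WT replicate 1 (1.63). Of the 13, 5 (Ppp1r15a, Chac1, Psph, Mthfd2 and Slc7a5) kept the call under each of the 11 other alternatives. Without unstimulated KD replicate 1 the count was 2, and without unstimulated WT replicate 1, whose title lacks the genotype, it was 9.

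**Figure D1:**
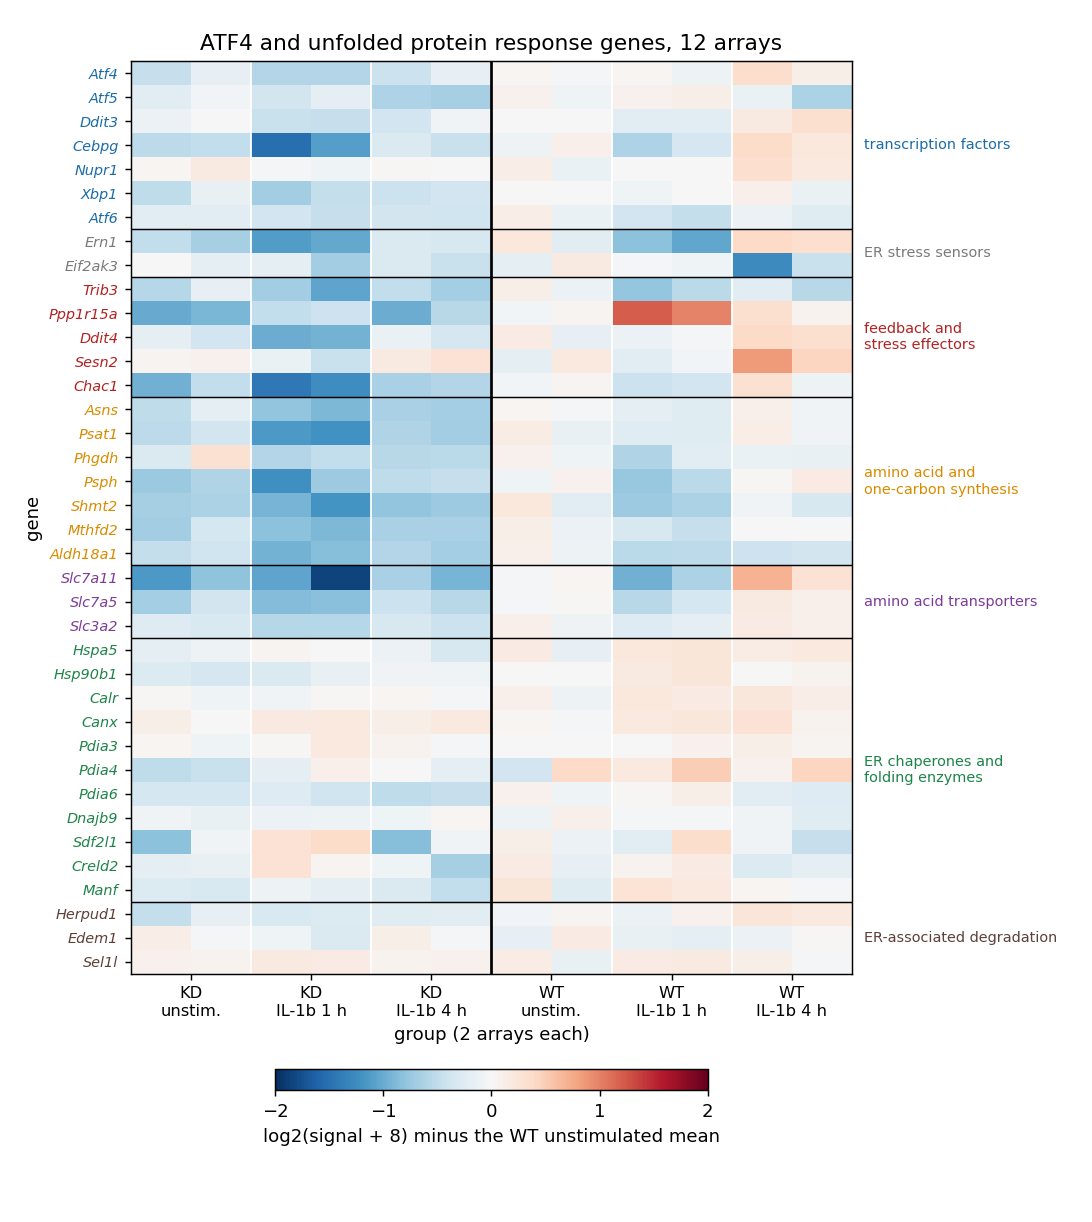
Colour map of the 38 genes (rows, grouped by role) on the 12 arrays (columns, 2 per group, KD left of WT). Colour is log2(signal + 8) minus the mean of the 2 unstimulated WT arrays, on a scale from -2 (blue) to 2 (red); the lowest value is Slc7a11 on 1 h KD replicate 2 at -1.85, and the highest is Ppp1r15a on 1 h WT replicate 1 at 1.21.

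The next question was how the genes stood after 1 h of IL-1b, against unstimulated cells harvested at 4 h. Time of harvest and IL-1b cannot be told apart in this comparison. In KD cells 0 members rose and 6 fell (15.8% of 38), namely Cebpg, Psat1, Ddit4, Chac1, Asns and Aldh18a1, against 1.56% of all genes that rose and 1.72% that fell (3.28% in either direction). In WT cells 1 member, Ppp1r15a, rose and 7 fell (18.4%), namely Ern1, Shmt2, Psph, Trib3, Aldh18a1, Slc7a5 and Mthfd2, against 2.92% of all genes that rose and 4.52% that fell (7.44% in either direction). With each array centred on its median, 2 rose and 1 fell in WT cells, and the median over the members, -0.07 as deposited, was 0.09. The median over the members in KD cells was -0.27 in both cases. The 1 h responses of the 2 genotypes, which share no array, had the same sign for 34 of the 38 members (89.5%) and for 64.3% of all genes. Their correlation across members was 0.73 (Pearson) and 0.83 (Spearman, n = 38 genes), and across all genes 0.34 and 0.35; genes are not independent replicates, and no p is given. All 6 KD calls were lost without a variance trend, and 3 of the 4 of these members with another tested probe set had another one called lower. In WT cells 1 call, that of Ppp1r15a, was kept under each of the 11 other alternatives, and 2 of 5 members had another probe set called in the same direction. The KD count of 6 was 2 without unstimulated KD replicate 2, 2 without 1 h KD replicate 1 and 3 without 1 h KD replicate 2. The WT count of 8 was 3 without 1 h WT replicate 1 and 5 without 1 h WT replicate 2, and without unstimulated WT replicate 1 it was 9, of which 5 rose.

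The next comparison set 4 h against 1 h. In KD cells 5 members were higher at 4 h than at 1 h (Cebpg, Ern1, Ddit4, Chac1 and Psat1) and 0 were lower, against 2.24% of all genes higher and 1.8% lower (4.04% in either direction). In WT cells 12 were higher and 3 lower (6 and 3 with each array centred on its median), against 8.41% of all genes higher and 10.6% lower (19% in either direction). The 12 were Ern1, Slc7a11, Sesn2, Cebpg, Psph, Slc7a5, Chac1, Shmt2, Ddit3, Ddit4, Mthfd2 and Slc3a2, and the 3 were Ppp1r15a, Eif2ak3 and Atf5. The 1 h mean was the lowest of the 3 conditions in both genotypes for 21 members (55.3%) and for 19.3% of all genes. These 21 held 6 of the 7 genes of amino acid and one-carbon synthesis, all 3 amino acid transporters and 0 of the 11 ER chaperones and folding enzymes. The comparisons of 1 h with unstimulated cells and of 4 h with 1 h share the 1 h arrays. All 5 KD calls were lost without a variance trend in the fit, and of the 3 of these members with another tested probe set 0 had another one called. The KD count of 5 was 2 without 1 h KD replicate 1, without 4 h KD replicate 1 or without 4 h KD replicate 2. The WT count of 15 was 6 without 1 h WT replicate 1, 8 without 1 h WT replicate 2 and 7 without 4 h WT replicate 1. Ppp1r15a, Sesn2, Psph, Slc7a11 and Slc7a5 kept the WT call under each of the 11 other alternatives in which they were tested, and of the 7 WT members with another tested probe set 2 had another one called in the same direction.

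At 4 h against unstimulated cells, the share of members called in WT cells was near that of all genes. In KD cells limma called 0 members, against 0.442% of all genes that rose and 0.177% that fell (0.618% in either direction). At an unadjusted p under 0.05 there were 4 members, and the share of all genes at that threshold was not computed. In WT cells 2 rose (Sesn2 and Ddit4) and 2 fell (Eif2ak3 and Aldh18a1), or 1 and 0 with each array centred on its median. That is 5.26% of the 38 in each direction, against 4.69% of all genes that rose and 7.34% that fell (12% in either direction). The WT count of 4 was 1 without 4 h WT replicate 1, and 2 without unstimulated WT replicate 2, 1 h WT replicate 1, 1 h WT replicate 2 or 1 h KD replicate 1. The KD count of 0 was 1 in 5 of the 12 fits that left out 1 array. The called gene was Atf5 without unstimulated WT replicate 1 or 2 or 4 h WT replicate 1 or 2, at a response of -0.51 (limma adjusted p = 0.0384 to 0.0412), and Phgdh without unstimulated KD replicate 1, at -0.84 (limma adjusted p = 0.0451). All 4 WT calls were lost without a variance trend.

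The test of the response itself between genotypes (KD response minus WT response) called 0 members at 1 h, against 0.145% of all genes with a higher and 0.345% with a lower response in KD cells (0.49% in all). At 4 h it called 0, against 1.45% of all genes with a higher and 1.58% with a lower response in KD cells (3.03% in all). At an unadjusted p under 0.05 limma gave 4 members at 1 h and 3 at 4 h. The share of all genes at that threshold was not computed, so these counts have no background to be read against. Ddit4 had a difference of -0.60 ± 0.15 (limma adjusted p = 0.13) at 1 h with a 95% interval of -0.91 to -0.28, and Psat1 one of -0.49 ± 0.14 (limma adjusted p = 0.244) with an interval of -0.79 to -0.18. Ppp1r15a differed by -0.60 ± 0.27 (limma adjusted p = 0.574) with an interval of -1.18 to -0.02. Members called in only 1 genotype at 1 h are therefore not shown to respond differently. Without unstimulated WT replicate 1, 2 members were called at 1 h, Ddit4 at -0.75 (limma adjusted p = 0.00851) and Psat1 at -0.64 (limma adjusted p = 0.0241). At 4 h the same fit called 2, Nupr1 at -0.49 (limma adjusted p = 0.0128) and Hspa5 at -0.42 (limma adjusted p = 0.0317).

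**Figure D2:**
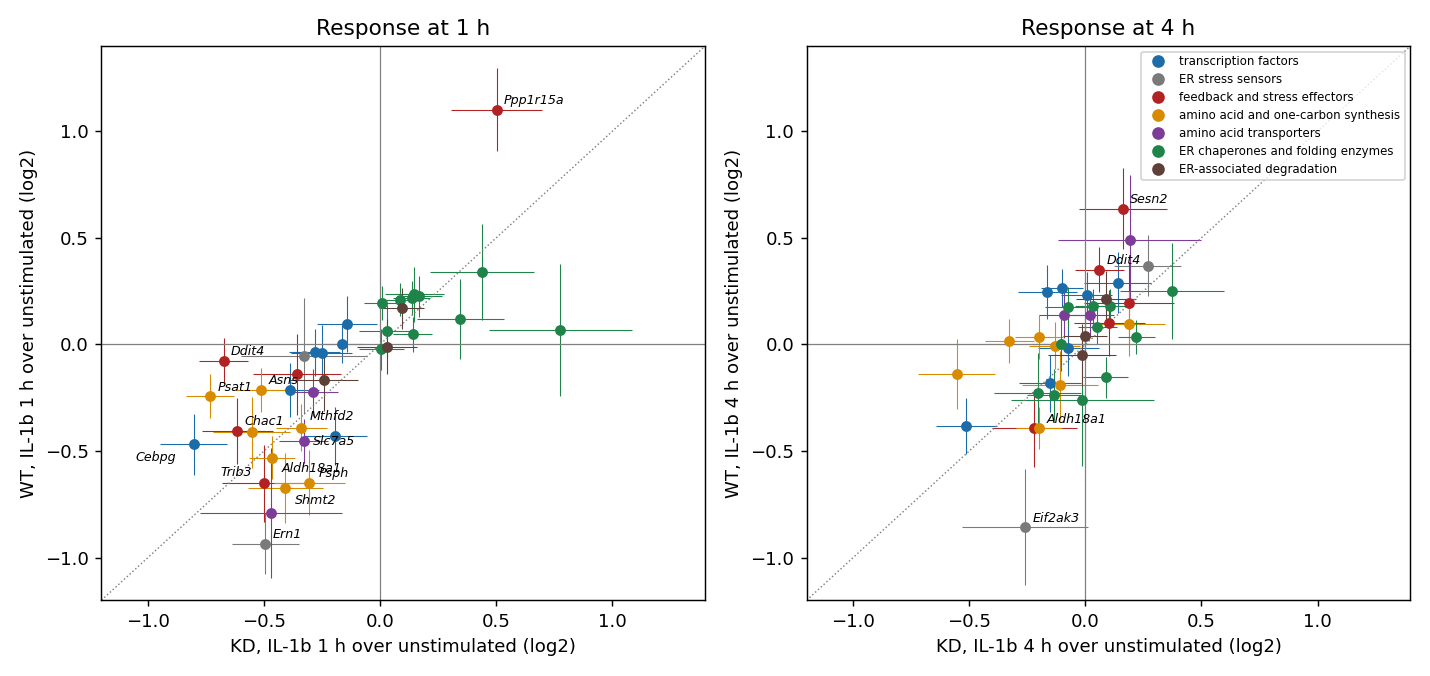
Response to IL-1b in KD cells (horizontal) and WT cells (vertical), as log2 fold change over unstimulated cells, at 1 h (left) and 4 h (right); points are the 38 genes coloured by role, lines are standard errors, the dotted line marks equal response, and genes called in either genotype are named. At 1 h, 34 of 38 points lie in the quadrants of equal sign, and amino acid genes lie at the lower left.

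Of the 7 transcription factors 5 were lower in KD cells on average (Atf4, Atf5, Ddit3, Cebpg and Xbp1) and 0 were higher. Atf4 encodes the central activator of the pathway. Atf4 had signals of 1989.7 and 2445 in unstimulated KD cells, 1821 and 1806 at 1 h and 2018 and 2431 at 4 h, against 2792 and 2664 in unstimulated WT cells, 2794 and 2528 at 1 h and 3472 and 2951 at 4 h. All 6 KD arrays lay below all 6 WT arrays, the highest KD array being an unstimulated one and the lowest WT array one at 1 h. Atf4 had a genotype difference of -0.46 ± 0.06 (limma adjusted p = 2.3e-05). Its 1 h response was -0.28 ± 0.11 (limma adjusted p = 0.196) in KD cells and -0.04 ± 0.11 (limma adjusted p = 0.886) in WT cells. Another probe set of the gene had a genotype difference of -0.37 ± 0.06 (limma adjusted p = 5.17e-05).

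Cebpg encodes a C/EBP protein that pairs with ATF4. Cebpg had signals of 340.3 and 350.4 in unstimulated KD cells, 168 and 225 at 1 h and 402 and 361 at 4 h, against 462 and 528 in unstimulated WT cells, 321 and 392 at 1 h and 637 and 576 at 4 h. The 1 h arrays were the lowest in each genotype, and those of KD cells were the lowest of all 12. Cebpg fell by 0.80 ± 0.15 at 1 h in KD cells (limma adjusted p = 0.00641), against a response of -0.47 ± 0.15 (limma adjusted p = 0.0599) in WT cells that did not pass. Its later change was 0.94 ± 0.15 (limma adjusted p = 0.00135) in KD cells and 0.76 ± 0.15 (limma adjusted p = 0.00126) in WT cells. Cebpg had a genotype difference of -0.67 ± 0.08 (limma adjusted p = 7.37e-06), and of -0.51 ± 0.15 (limma adjusted p = 0.0262) among unstimulated cells. Single calls were lost at 1 h in KD cells without unstimulated KD replicate 2 or 1 h KD replicate 1 (limma adjusted p up to 0.0985), and among unstimulated cells without unstimulated WT replicate 2, unstimulated KD replicate 1 or unstimulated KD replicate 2 (limma adjusted p up to 0.146). Cebpg has 2 other tested probe sets, whose 1 h responses in KD cells were -0.13 ± 0.16 (limma adjusted p = 0.777) and -0.24 ± 0.20 (limma adjusted p = 0.632), and whose genotype differences were -0.44 ± 0.09 (limma adjusted p = 0.00149) and 0.02 ± 0.12 (limma adjusted p = 0.918). With the mean over the 3 probe sets the fall in KD cells at 1 h, at -0.39 (limma adjusted p = 0.103), the later change in WT cells, at 0.34 (limma adjusted p = 0.0579), and the unstimulated difference, at -0.31 (limma adjusted p = 0.0972), were not called.

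Ddit3 encodes CHOP, a C/EBP family protein tied to cell death in lasting ER stress. Ddit3 had signals of 336 and 363 in unstimulated KD cells, 266 and 264 at 1 h and 278 and 348 at 4 h, against 368 and 362 in unstimulated WT cells, 313 and 315 at 1 h and 413 and 458 at 4 h. Unstimulated arrays of both genotypes overlapped, while at 1 h and at 4 h the KD arrays lay below the WT arrays. Ddit3 had a genotype difference of -0.26 ± 0.07 (limma adjusted p = 0.0112) and a later change of 0.46 ± 0.13 (limma adjusted p = 0.0163) in WT cells. That later change was lost without 1 h WT replicate 1, 1 h WT replicate 2 or 4 h WT replicate 2 (limma adjusted p up to 0.131). Another probe set of Ddit3 showed no genotype difference past the test, at 0.00 ± 0.11 (limma adjusted p = 0.984). With the mean over both probe sets neither the genotype difference, at -0.13 (limma adjusted p = 0.236), nor the later change in WT cells, at 0.18 (limma adjusted p = 0.395), was called.

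Atf5 encodes a factor related to ATF4. Atf5 had signals of 981 and 1089 in unstimulated KD cells, 876 and 999 at 1 h and 732 and 712 at 4 h, against 1196 and 1070.3 in unstimulated WT cells, 1198 and 1223 at 1 h and 1027 and 729.5 at 4 h. The 4 h arrays were the lowest of each genotype. Atf5 had a genotype difference of -0.25 ± 0.08 (limma adjusted p = 0.016) and a later change of -0.48 ± 0.13 (limma adjusted p = 0.0158) in WT cells. The genotype call was lost without 4 h WT replicate 1, unstimulated KD replicate 1 or 1 h KD replicate 1 (limma adjusted p up to 0.0591), and the later change without 1 h WT replicate 1, 1 h WT replicate 2 or 4 h WT replicate 2 (limma adjusted p up to 0.256).

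Xbp1 encodes the factor whose mRNA IRE1 splices. Xbp1 had signals of 422 and 542 in unstimulated KD cells, 370.3 and 433 at 1 h and 446 and 463 at 4 h, against 607 and 603 in unstimulated WT cells, 568 and 609.8 at 1 h and 648 and 551 at 4 h. All KD arrays lay below all WT arrays, and within a genotype the conditions overlapped in part. Xbp1 had a genotype difference of -0.42 ± 0.07 (limma adjusted p = 0.000293), and its 1 h and 4 h responses lay between -0.25 and -0.02 with none called. Its other 3 tested probe sets had genotype differences of -0.20 to -0.39, all called. Atf6 encodes the membrane-bound factor. Atf6 had signals of 225 and 227 in unstimulated KD cells, 203 and 191 at 1 h and 205 and 201 at 4 h, against 294 and 241 in unstimulated WT cells, 202 and 189 at 1 h and 243 and 224 at 4 h. Atf6 had its highest array among unstimulated WT cells and its lowest among WT cells at 1 h, and the genotype difference was -0.14 ± 0.08 (limma adjusted p = 0.206). Nupr1, a small stress-induced nuclear protein gene, ranged from 2506 to 3453 over the 12 arrays with no call in the 10 comparisons.

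**Figure D3:**
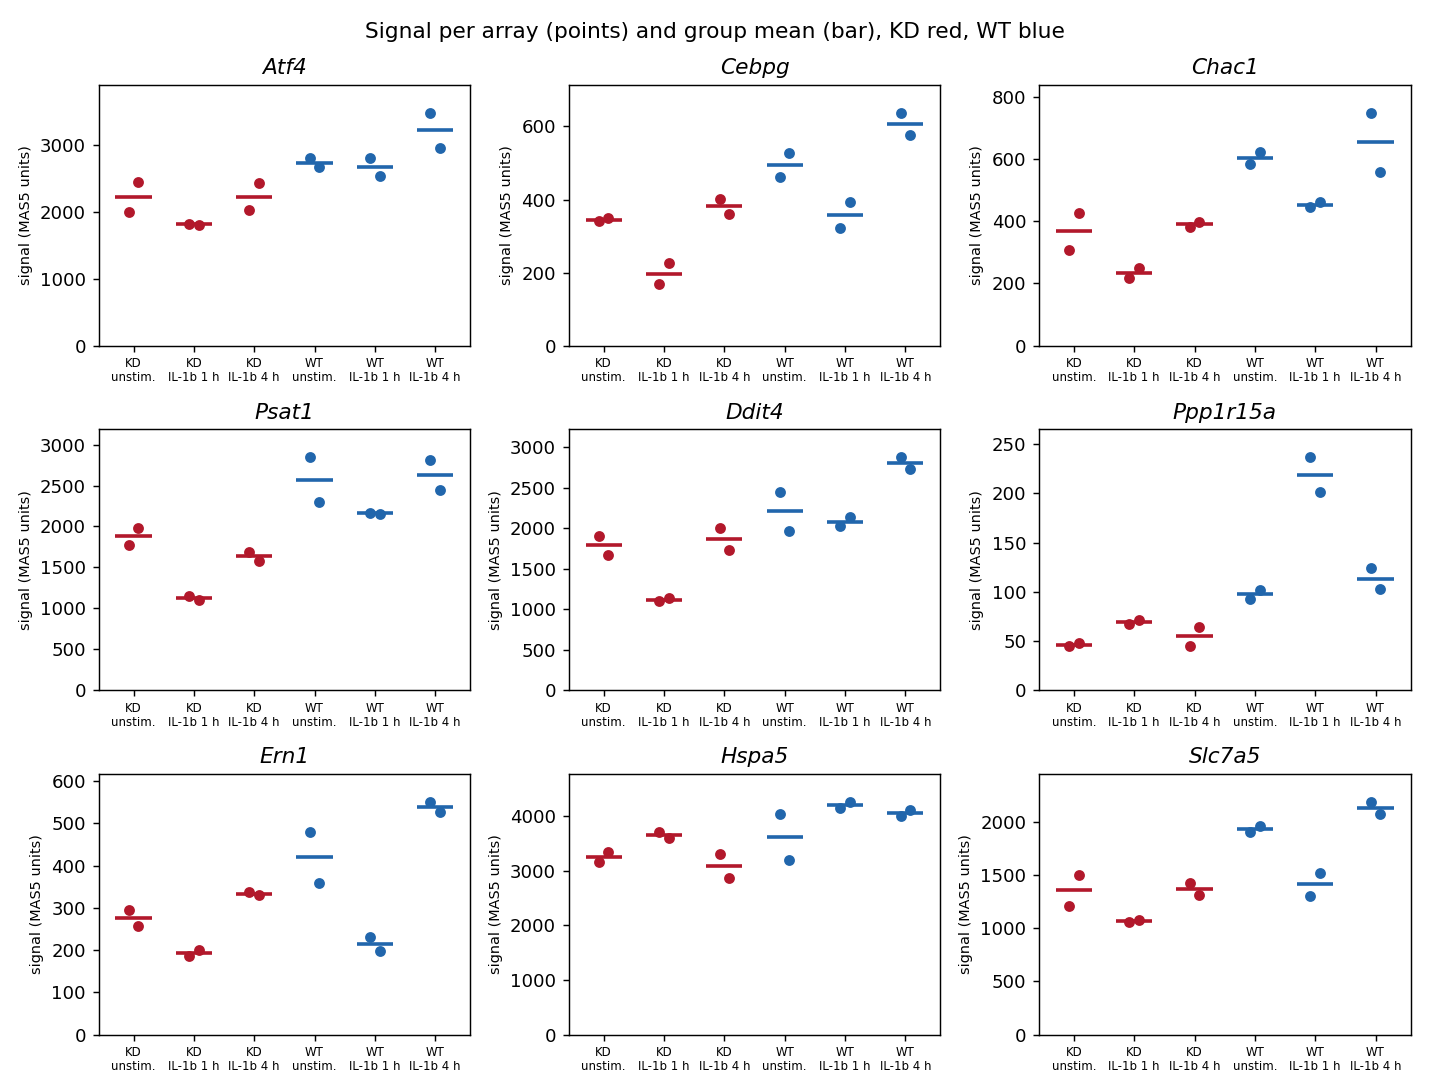
Signal per array (points, 2 per group) and group mean (bar) for 9 genes, on linear axes from 0, with KD groups in red left of WT groups in blue and conditions in time order. Cebpg, Chac1, Psat1 and Ddit4 dip at 1 h in KD cells, Ppp1r15a peaks at 1 h in WT cells at 202 to 237, and Hspa5 differs little between conditions.

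Of the 2 sensors, Ern1 changed in several comparisons. It encodes IRE1, the kinase and endonuclease that splices Xbp1 mRNA. Ern1 had signals of 294 and 258 in unstimulated KD cells, 186 and 201 at 1 h and 337 and 329 at 4 h, against 480.3 and 359 in unstimulated WT cells, 231 and 197 at 1 h and 551 and 527 at 4 h. At 1 h the KD and WT arrays overlapped at a low level, while unstimulated and 4 h WT arrays stood above the KD arrays of the same condition. In WT cells Ern1 fell by 0.93 ± 0.14 at 1 h (limma adjusted p = 0.000521), against -0.49 ± 0.14 (limma adjusted p = 0.073) in KD cells, which did not pass. Its later change was 0.76 ± 0.14 (limma adjusted p = 0.00641) in KD cells and 1.30 ± 0.14 (limma adjusted p = 5.72e-06) in WT cells. Ern1 had a genotype difference of -0.47 ± 0.08 (limma adjusted p = 0.000292), and of -0.58 ± 0.14 (limma adjusted p = 0.0108) among unstimulated cells. The later change in KD cells was lost without 1 h KD replicate 1, 4 h KD replicate 1 or 4 h KD replicate 2 (limma adjusted p up to 0.0823), and the unstimulated difference without unstimulated WT replicate 1 or unstimulated KD replicate 2 (limma adjusted p up to 0.105). Another tested probe set of Ern1, with low signals, was at 44.2 and 45.7 in WT cells at 1 h, against 27.8 and 24.3 in unstimulated WT cells, which is the opposite sign at 0.64 ± 0.33 (limma adjusted p = 0.291). Its later changes were 0.33 ± 0.33 (limma adjusted p = 0.694) in KD cells and -0.35 ± 0.33 (limma adjusted p = 0.541) in WT cells, and its genotype difference was -0.14 ± 0.19 (limma adjusted p = 0.645). With the mean over both probe sets the fall at 1 h in WT cells (-0.15, limma adjusted p = 0.694), the later changes in KD cells (0.54, limma adjusted p = 0.136) and WT cells (0.47, limma adjusted p = 0.0874) and the unstimulated difference (-0.30, limma adjusted p = 0.32) were not called.

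Eif2ak3 encodes PERK, which starts the ATF4 branch in ER stress. Eif2ak3 had signals of 72.7 and 63 in unstimulated KD cells, 64 and 42.6 at 1 h and 58.8 and 51.8 at 4 h, against 64.2 and 84 in unstimulated WT cells, 71.9 and 68.9 at 1 h and 25.8 and 51.8 at 4 h. One of the 4 h WT arrays was the lowest of the 12, and the other 4 h WT array equalled a 4 h KD array. Eif2ak3 fell by 0.86 ± 0.27 at 4 h in WT cells (limma adjusted p = 0.0496), against -0.26 ± 0.27 (limma adjusted p = 0.738) in KD cells, and its genotype difference was 0.00 ± 0.16 (limma adjusted p = 0.994). The fall at 4 h was lost in 10 of the 12 such fits (limma adjusted p up to 0.374), and the later change in WT cells, -0.80 ± 0.27 (limma adjusted p = 0.0489), in 7 of the 12 such fits (limma adjusted p up to 0.404).

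Of the 5 feedback and stress effectors 3 were lower in KD cells on average (Ppp1r15a, Ddit4 and Chac1). Ppp1r15a encodes GADD34, which brings a phosphatase to eIF2 and so ends the stress signal. Ppp1r15a had signals of 44.7 and 47.9 in unstimulated KD cells, 66.9 and 70.8 at 1 h and 45.3 and 63.8 at 4 h, against 93.1 and 102 in unstimulated WT cells, 237 and 202 at 1 h and 124 and 102 at 4 h. The 1 h WT arrays were the highest of the 12, and every KD array lay below every WT array. In WT cells Ppp1r15a rose by 1.10 ± 0.19 (limma adjusted p = 0.00182) at 1 h, against 0.50 ± 0.19 (limma adjusted p = 0.19) in KD cells, which did not pass; the later change was -0.31 ± 0.19 (limma adjusted p = 0.43) in KD cells and -0.91 ± 0.19 (limma adjusted p = 0.00315) in WT cells. Ppp1r15a had a genotype difference of -1.16 ± 0.11 (limma adjusted p = 3.3e-07), and of -0.96 ± 0.19 (limma adjusted p = 0.00254) among unstimulated cells. All 4 of its calls held in each of the 12 fits that left out 1 array. It was the only member to rise at 1 h in WT cells.

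Ddit4 encodes REDD1, which restrains the growth kinase mTORC1. Ddit4 had signals of 1908 and 1674 in unstimulated KD cells, 1099 and 1136 at 1 h and 2001 and 1735 at 4 h, against 2449 and 1969.5 in unstimulated WT cells, 2031 and 2133 at 1 h and 2876 and 2731 at 4 h. The 1 h KD arrays were far below the other 10, whereas the 1 h WT arrays lay among the unstimulated WT ones. In KD cells Ddit4 fell by 0.67 ± 0.11 at 1 h (limma adjusted p = 0.00206), against -0.08 ± 0.11 (limma adjusted p = 0.73) in WT cells. Its later change was 0.73 ± 0.11 (limma adjusted p = 0.000714) in KD cells and 0.43 ± 0.11 (limma adjusted p = 0.00852) in WT cells, and at 4 h in WT cells it was 0.35 ± 0.11 (limma adjusted p = 0.0391) above unstimulated. Ddit4 had a genotype difference of -0.59 ± 0.06 (limma adjusted p = 7.3e-07). The later change in WT cells was lost without 1 h WT replicate 1 or 4 h WT replicate 1 (limma adjusted p up to 0.0774), and the 4 h response in 7 of the 12 such fits (limma adjusted p up to 0.239).

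Chac1 encodes an enzyme that breaks down glutathione. Chac1 had signals of 307 and 427 in unstimulated KD cells, 219 and 249 at 1 h and 382 and 398 at 4 h, against 584 and 623 in unstimulated WT cells, 446 and 460.4 at 1 h and 748 and 559 at 4 h. Every KD array lay below every WT array, with the 1 h arrays lowest in each genotype. Chac1 had a genotype difference of -0.79 ± 0.09 (limma adjusted p = 2.1e-06), and of -0.72 ± 0.15 (limma adjusted p = 0.00376) among unstimulated cells. In KD cells it fell by 0.61 ± 0.15 at 1 h (limma adjusted p = 0.0376), against -0.41 ± 0.15 (limma adjusted p = 0.131) in WT cells. Its later change was 0.72 ± 0.15 (limma adjusted p = 0.0142) in KD cells and 0.51 ± 0.15 (limma adjusted p = 0.0296) in WT cells. The fall at 1 h in KD cells was lost in 7 of the 12 such fits (limma adjusted p up to 0.428), the later change in KD cells without 1 h KD replicate 1, 4 h KD replicate 1 or 4 h KD replicate 2 (limma adjusted p up to 0.149), that in WT cells without 1 h WT replicate 1, 1 h WT replicate 2 or 4 h WT replicate 1 (limma adjusted p up to 0.302), and the unstimulated difference without unstimulated KD replicate 1 (limma adjusted p = 0.0839). Chac1 has no other probe set here. In the fit that averaged the probe sets of every gene, its own signals were unchanged. Its fall at 1 h in KD cells there had a limma adjusted p of 0.0521 and did not pass.

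Sesn2 encodes sestrin 2, a leucine-binding restraint on mTORC1. Sesn2 had signals of 122 and 124 in unstimulated KD cells, 106 and 83.9 at 1 h and 133 and 145 at 4 h, against 101 and 136 in unstimulated WT cells, 98.3 and 113 at 1 h and 216 and 160.3 at 4 h. The 4 h WT arrays were the highest, and unstimulated arrays of the genotypes overlapped. Sesn2 rose by 0.64 ± 0.19 (limma adjusted p = 0.0368) at 4 h in WT cells, against 0.16 ± 0.19 (limma adjusted p = 0.771) in KD cells, and its later change in WT cells was 0.78 ± 0.19 (limma adjusted p = 0.00776). The 4 h rise was lost without unstimulated WT replicate 1 or 4 h WT replicate 1 (limma adjusted p up to 0.271), and the later change without 1 h WT replicate 1 or 4 h WT replicate 1 (limma adjusted p up to 0.108). Another tested probe set of Sesn2 had a 4 h response of 0.17 ± 0.28 (limma adjusted p = 0.776) in WT cells and a later change of 0.90 ± 0.28 (limma adjusted p = 0.0394). Trib3 encodes a pseudokinase that binds ATF4 and dampens it. Trib3 had signals of 166 and 222 in unstimulated KD cells, 152 and 117 at 1 h and 175 and 153 at 4 h, against 273 and 229.8 in unstimulated WT cells, 144 and 170.4 at 1 h and 212 and 168 at 4 h. The lowest array of each genotype was one at 1 h. In WT cells Trib3 fell by 0.65 ± 0.18 at 1 h (limma adjusted p = 0.0366), against -0.50 ± 0.18 (limma adjusted p = 0.159) in KD cells, and its genotype difference was -0.26 ± 0.11 (limma adjusted p = 0.0686). The fall was lost without unstimulated WT replicate 1, 1 h WT replicate 1 or 1 h WT replicate 2 (limma adjusted p up to 0.233). With the mean over its probe sets the genotype difference of Trib3 was -0.33 (limma adjusted p = 0.0169), which passed.

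**Figure D4:**
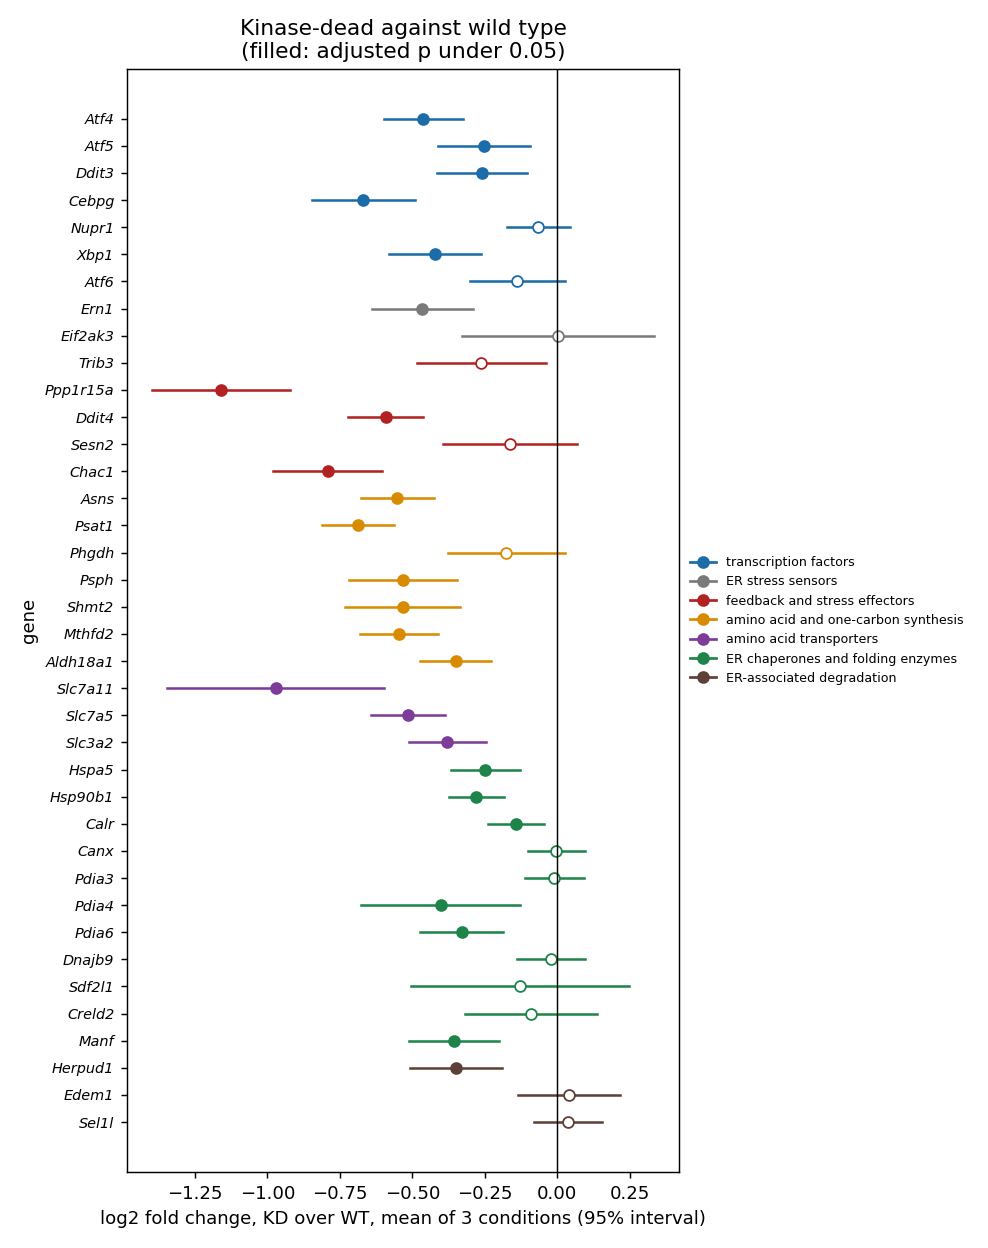
KD over WT log2 fold change averaged over the 3 conditions (horizontal axis) for the 38 genes (vertical axis, grouped and coloured by role), with 95% intervals; filled points passed an adjusted p under 0.05. The 25 filled points all lie below 0, from Ppp1r15a at -1.16 to Calr at -0.14.

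Of the 7 genes of amino acid and one-carbon synthesis 6 were lower in KD cells on average, with a median genotype difference of -0.53 over the 7. Their 1 h responses were all negative, with 3 called in KD cells (median -0.46) and 4 in WT cells (median -0.41). The serine pathway runs through Phgdh, Psat1 and Psph. Psat1 had signals of 1776 and 1981 in unstimulated KD cells, 1147 and 1106 at 1 h and 1682 and 1584 at 4 h, against 2844 and 2303 in unstimulated WT cells, 2165 and 2157 at 1 h and 2811 and 2444 at 4 h. The 1 h KD arrays were the lowest of the 12, and no KD array reached a WT array. In KD cells Psat1 fell by 0.73 ± 0.10 at 1 h (limma adjusted p = 0.000742), against -0.24 ± 0.10 (limma adjusted p = 0.178) in WT cells. Psat1 had a genotype difference of -0.69 ± 0.06 (limma adjusted p = 7.83e-08), and of -0.45 ± 0.10 (limma adjusted p = 0.00651) among unstimulated cells. Its later change in KD cells was 0.53 ± 0.10 (limma adjusted p = 0.00765). The unstimulated difference was lost without unstimulated WT replicate 1 or unstimulated KD replicate 1 (limma adjusted p up to 0.0918), and the later change in 4 of the 12 such fits (limma adjusted p up to 0.0834).

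Psph had signals of 248 and 275 in unstimulated KD cells, 176 and 251 at 1 h and 294 and 304 at 4 h, against 396 and 449.8 in unstimulated WT cells, 247 and 287 at 1 h and 430.1 and 475 at 4 h. Its 1 h WT arrays fell among the KD arrays, while unstimulated and 4 h WT arrays stood above all KD arrays. In WT cells Psph fell by 0.65 ± 0.15 at 1 h (limma adjusted p = 0.0149), against -0.30 ± 0.15 (limma adjusted p = 0.336) in KD cells. Psph had a later change of 0.75 ± 0.15 (limma adjusted p = 0.00224) in WT cells, a genotype difference of -0.53 ± 0.09 (limma adjusted p = 0.000158), and one of -0.68 ± 0.15 (limma adjusted p = 0.00587) among unstimulated cells. The fall at 1 h was lost without unstimulated WT replicate 2 or 1 h WT replicate 1 (limma adjusted p up to 0.141), and the unstimulated difference without unstimulated KD replicate 1 (limma adjusted p = 0.0654). Phgdh, the entry enzyme of the pathway, ranged from 288 to 548 over the 12 arrays with no call, and its highest array was an unstimulated KD one.

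Asns makes asparagine. Asns had signals of 1184 and 1486 in unstimulated KD cells, 963 and 894 at 1 h and 1064 and 1048 at 4 h, against 1728 and 1630 in unstimulated WT cells, 1472 and 1421 at 1 h and 1791 and 1605 at 4 h. KD arrays lay below WT arrays in each condition, and the 1 h KD arrays were the lowest. In KD cells Asns fell by 0.51 ± 0.10 at 1 h (limma adjusted p = 0.0124), against -0.21 ± 0.10 (limma adjusted p = 0.251) in WT cells. Asns had a genotype difference of -0.55 ± 0.06 (limma adjusted p = 1.56e-06), and of -0.34 ± 0.10 (limma adjusted p = 0.0393) among unstimulated cells. The fall was lost without unstimulated KD replicate 2, 1 h KD replicate 1 or 1 h KD replicate 2 (limma adjusted p up to 0.214), and the unstimulated difference in 9 of the 12 such fits (limma adjusted p up to 0.404).

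Shmt2 and Mthfd2 encode mitochondrial enzymes that pass one-carbon units from serine to folate. Mthfd2 had signals of 1097 and 1393 in unstimulated KD cells, 998 and 952 at 1 h and 1126 and 1129.6 at 4 h, against 1919 and 1646 in unstimulated WT cells, 1422 and 1288 at 1 h and 1762 and 1777 at 4 h. In each condition the KD arrays lay below the WT arrays. Mthfd2 had a genotype difference of -0.55 ± 0.06 (limma adjusted p = 3.07e-06), one of -0.52 ± 0.11 (limma adjusted p = 0.00345) among unstimulated cells, a 1 h response of -0.39 ± 0.11 (limma adjusted p = 0.0383) in WT cells and a later change of 0.38 ± 0.11 (limma adjusted p = 0.0208) there. Shmt2 had signals of 161 and 165 in unstimulated KD cells, 134 and 109 at 1 h and 148 and 154 at 4 h, against 302 and 224 in unstimulated WT cells, 155 and 166 at 1 h and 247 and 208 at 4 h. Shmt2 was likewise lower on the KD arrays of each condition, with WT arrays at 1 h close to the unstimulated KD arrays. Its genotype difference was -0.53 ± 0.09 (limma adjusted p = 0.000281), that among unstimulated cells -0.65 ± 0.16 (limma adjusted p = 0.0119), its 1 h response in WT cells -0.67 ± 0.16 (limma adjusted p = 0.0171) and the later change there 0.48 ± 0.16 (limma adjusted p = 0.0487). For Mthfd2 the 1 h response was lost in 9 of the 12 such fits (limma adjusted p up to 0.279), the later change without 1 h WT replicate 2, 4 h WT replicate 1 or 4 h WT replicate 2 (limma adjusted p up to 0.175) and the unstimulated difference without unstimulated KD replicate 1 (limma adjusted p = 0.0834). For Shmt2 the same 3 calls were lost without unstimulated WT replicate 1, 1 h WT replicate 1 or 1 h WT replicate 2 (limma adjusted p up to 0.143), in 10 of the 12 such fits (limma adjusted p up to 0.267) and without unstimulated WT replicate 1, unstimulated KD replicate 1 or unstimulated KD replicate 2 (limma adjusted p up to 0.113). With the mean over probe sets, the 1 h response and the later change in WT cells were not called for Shmt2 (-0.52, limma adjusted p = 0.0772 and 0.36, limma adjusted p = 0.16) or for Mthfd2 (-0.36, limma adjusted p = 0.126 and 0.34, limma adjusted p = 0.0926). When probe sets not named _x_at were preferred, Shmt2 lost the calls of its 1 h response, later change and unstimulated difference. Its genotype difference was kept.

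Aldh18a1 encodes the first enzyme of proline synthesis from glutamate. Aldh18a1 had signals of 730.4 and 770.4 in unstimulated KD cells, 524 and 559.8 at 1 h and 674 and 632 at 4 h, against 1088 and 953 in unstimulated WT cells, 696 and 708 at 1 h and 761 and 787 at 4 h. In each condition the KD arrays lay below the WT arrays. Aldh18a1 was the only member called as lower at 1 h in both genotypes, with responses of -0.46 ± 0.10 (limma adjusted p = 0.0171) in KD cells and -0.53 ± 0.10 (limma adjusted p = 0.00298) in WT cells. At 4 h it was still lower in WT cells, at -0.39 ± 0.10 (limma adjusted p = 0.0159), against -0.20 ± 0.10 (limma adjusted p = 0.402) in KD cells. Aldh18a1 had a genotype difference of -0.35 ± 0.06 (limma adjusted p = 0.000145), and of -0.44 ± 0.10 (limma adjusted p = 0.00638) among unstimulated cells. The fall at 1 h in KD cells was lost in 4 of the 12 such fits (limma adjusted p up to 0.167), that at 4 h in WT cells without unstimulated WT replicate 1, 4 h WT replicate 1 or 4 h WT replicate 2 (limma adjusted p up to 0.0958), and the unstimulated difference without unstimulated KD replicate 1 (limma adjusted p = 0.0644). These calls were also lost when probe sets not named _x_at were preferred, while the fall at 1 h in WT cells and the genotype difference were kept.

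All 3 amino acid transporters were lower in KD cells on average, with a median of -0.52. Slc7a5 encodes LAT1, an importer of leucine and other large neutral amino acids. Slc7a5 had signals of 1207 and 1502 in unstimulated KD cells, 1059 and 1080.2 at 1 h and 1423 and 1309 at 4 h, against 1899.5 and 1959 in unstimulated WT cells, 1305 and 1517 at 1 h and 2186 and 2068 at 4 h. The KD arrays lay below the WT arrays of the same condition, and each genotype had its lowest arrays at 1 h. In WT cells Slc7a5 fell by 0.45 ± 0.11 at 1 h (limma adjusted p = 0.0135), against -0.33 ± 0.11 (limma adjusted p = 0.106) in KD cells. Slc7a5 had a later change of 0.59 ± 0.11 (limma adjusted p = 0.000683) in WT cells, a genotype difference of -0.52 ± 0.06 (limma adjusted p = 3.66e-06), and one of -0.52 ± 0.11 (limma adjusted p = 0.00266) among unstimulated cells. The fall was lost without 1 h WT replicate 1 (limma adjusted p = 0.166), and the unstimulated difference without unstimulated KD replicate 1 (limma adjusted p = 0.0685).

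Slc7a11 encodes the cystine importer xCT, and its signals were low. Slc7a11 had signals of 23.3 and 32 in unstimulated KD cells, 25.6 and 11.4 at 1 h and 36.4 and 28.7 at 4 h, against 59.5 and 64 in unstimulated WT cells, 28 and 37.1 at 1 h and 105 and 76.9 at 4 h. The 1 h WT arrays were the lowest of the WT arrays and overlapped the KD range. Slc7a11 had a genotype difference of -0.97 ± 0.18 (limma adjusted p = 0.000378), one of -0.98 ± 0.31 (limma adjusted p = 0.0415) among unstimulated cells and a later change of 1.28 ± 0.31 (limma adjusted p = 0.00698) in WT cells. The unstimulated difference was lost in 6 of the 12 such fits (limma adjusted p up to 0.227), and the later change without 1 h WT replicate 1 or 4 h WT replicate 1 (limma adjusted p up to 0.0786). Slc3a2 encodes the heavy chain that both of these carriers need at the cell surface. Slc3a2 had signals of 451 and 434 in unstimulated KD cells, 362 and 361 at 1 h and 429 and 400.2 at 4 h, against 577 and 505 in unstimulated WT cells, 451 and 470 at 1 h and 608 and 581 at 4 h. In each condition its KD arrays lay below its WT arrays. Slc3a2 had a genotype difference of -0.38 ± 0.06 (limma adjusted p = 0.000146) and a later change of 0.36 ± 0.11 (limma adjusted p = 0.0265) in WT cells. That later change was lost in 4 of the 12 such fits (limma adjusted p up to 0.143).

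The promoters of 35 of the 38 members, 250 bases before to 50 after the RefSeq start on GRCm38.p6, were searched on both strands for the C/EBP-ATF element TGATGNAA, at which ATF4 binds with a C/EBP partner. It stood in 6 of the 35 (17.1%), namely Asns, Chac1, Herpud1, Nupr1, Slc7a11 and Trib3, and in the promoters of 4.51% of all 27025 genes. Slc7a11, which holds the element at 66 and at 47 bases before the start, Chac1, which holds it at 193, and Asns, which holds it at 23, are shown because all 3 genes hold the element and were lower in KD cells on average. They read 5' to 3' along the gene, with the fixed letters of the element, or of its reverse complement, in capitals, at chr3:50443564-50443863, minus strand for Slc7a11, chr2:119350992-119351291, plus strand for Chac1 and chr6:7693160-7693459, minus strand for Asns.
Slc7a11: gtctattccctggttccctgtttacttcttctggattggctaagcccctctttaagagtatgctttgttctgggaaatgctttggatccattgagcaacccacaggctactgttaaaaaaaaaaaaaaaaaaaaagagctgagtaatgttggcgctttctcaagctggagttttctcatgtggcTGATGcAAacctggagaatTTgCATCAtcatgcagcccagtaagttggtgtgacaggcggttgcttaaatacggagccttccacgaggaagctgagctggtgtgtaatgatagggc
Chac1: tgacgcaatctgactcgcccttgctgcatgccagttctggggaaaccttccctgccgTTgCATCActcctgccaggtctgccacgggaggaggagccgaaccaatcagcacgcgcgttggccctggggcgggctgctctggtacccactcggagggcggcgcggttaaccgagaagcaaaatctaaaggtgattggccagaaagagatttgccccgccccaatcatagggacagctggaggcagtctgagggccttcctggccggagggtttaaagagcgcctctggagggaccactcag
Asns: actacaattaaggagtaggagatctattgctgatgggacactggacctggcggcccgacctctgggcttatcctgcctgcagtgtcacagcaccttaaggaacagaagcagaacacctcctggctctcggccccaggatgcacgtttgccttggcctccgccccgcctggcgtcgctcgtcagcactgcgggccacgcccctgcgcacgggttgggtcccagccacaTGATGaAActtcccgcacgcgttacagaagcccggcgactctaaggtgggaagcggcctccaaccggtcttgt

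These letters describe the windows and say nothing of binding in these cells. Of the 6 members with the element, Asns, Chac1, Slc7a11 and Herpud1 were lower in KD cells on average, while Nupr1 and Trib3 were not called. Of all 38 members 25 were lower, which is a similar share.

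Of the 11 ER chaperones and folding enzymes 6 were lower in KD cells on average (Hspa5, Hsp90b1, Calr, Pdia4, Pdia6 and Manf), with a median of -0.14 over the 11. None was called at 1 h, at 4 h or between them in either genotype (0 of 11 in each of the 6 tests with limma). The shares of all genes called in these tests ran from 0.618% (KD, 4 h) to 19% (WT, 4 h against 1 h). With 11 genes, a count of 0 is not far from such shares. At an unadjusted p under 0.05 there were 1 to 4 genes per test, and the share of all genes at that threshold was not computed. The 1 h responses were positive for 11 of 11 in KD cells (median 0.14) and for 10 of 11 in WT cells (median 0.19), the WT count being 9 after quantile normalization and 11 with arrays centred on their median. Those of the 7 synthesis genes were all negative in both genotypes under each of these scalings. Hspa5 encodes BiP, the main ER chaperone, which also holds the sensors inactive. Hspa5 had signals of 3166 and 3333 in unstimulated KD cells, 3712 and 3594 at 1 h and 3313 and 2864 at 4 h, against 4040.4 and 3194 in unstimulated WT cells, 4147 and 4259 at 1 h and 4002 and 4105 at 4 h. One unstimulated WT array lay in the KD range, and the other WT arrays lay above all KD arrays. Hspa5 had a genotype difference of -0.25 ± 0.06 (limma adjusted p = 0.00241), and 1 h responses of 0.17 ± 0.10 (limma adjusted p = 0.415) in KD cells and 0.23 ± 0.10 (limma adjusted p = 0.186) in WT cells. Its other probe sets gave -0.35 ± 0.05 (limma adjusted p = 6.3e-05) and -0.31 ± 0.13 (limma adjusted p = 0.0851) for the genotype.

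Hsp90b1 encodes GRP94, the ER member of the HSP90 family. Hsp90b1 had signals of 1919 and 1836 in unstimulated KD cells, 1897 and 2086 at 1 h and 2191 and 2184 at 4 h, against 2314 and 2307 in unstimulated WT cells, 2629 and 2722 at 1 h and 2310.4 and 2425 at 4 h. All KD arrays lay below all WT arrays, and the highest KD arrays were those at 4 h. Hsp90b1 had a genotype difference of -0.28 ± 0.04 (limma adjusted p = 0.00011), and of -0.30 ± 0.08 (limma adjusted p = 0.015) among unstimulated cells, the only chaperone called there. That unstimulated call was lost without unstimulated KD replicate 1 or unstimulated KD replicate 2 (limma adjusted p up to 0.115). On another tested probe set of Hsp90b1 the genotypes overlapped (1322 to 1702 on KD arrays and 1424 to 1897 on WT arrays), with a genotype difference of -0.08 ± 0.06 (limma adjusted p = 0.385). The unstimulated difference was -0.18 (limma adjusted p = 0.133) with the mean over both probe sets. Manf encodes a secreted ER stress protein. Manf had signals of 869 and 859 in unstimulated KD cells, 982 and 933 at 1 h and 864 and 746 at 4 h, against 1255 and 891 in unstimulated WT cells, 1274 and 1217 at 1 h and 1085 and 1035 at 4 h. Apart from 1 unstimulated WT array, the WT arrays lay above all KD arrays. Manf had a genotype difference of -0.35 ± 0.07 (limma adjusted p = 0.00118).

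Pdia4 and Pdia6 encode disulfide isomerases, and Calr the lectin chaperone calreticulin. Pdia6 had signals of 309 and 307 in unstimulated KD cells, 329.7 and 299 at 1 h and 274 and 285 at 4 h, against 421 and 369.9 in unstimulated WT cells, 399.5 and 427 at 1 h and 341 and 327 at 4 h. In each condition its KD arrays lay below its WT arrays. Pdia6 had a genotype difference of -0.33 ± 0.07 (limma adjusted p = 0.00112), whereas with the mean over its probe sets it was 0.01 (limma adjusted p = 0.969). Pdia4 had signals of 74.3 and 78.5 in unstimulated KD cells, 95.7 and 118 at 1 h and 108 and 94.6 at 4 h, against 82.3 and 144 in unstimulated WT cells, 126 and 157 at 1 h and 116 and 149 at 4 h. Its arrays overlapped between genotypes, and the genotype difference was -0.40 ± 0.13 (limma adjusted p = 0.0254). Calr had signals of 5128 and 4718 in unstimulated KD cells, 4771 and 5133 at 1 h and 5171 and 4899 at 4 h, against 5374 and 4699 in unstimulated WT cells, 5842 and 5646 at 1 h and 5912 and 5488 at 4 h. At 1 h and 4 h the KD arrays were below the WT arrays and in unstimulated cells they overlapped. Calr had a genotype difference of -0.14 ± 0.05 (limma adjusted p = 0.0254). The call of Pdia4 was lost in 6 of the 12 such fits (limma adjusted p up to 0.0857) and that of Calr in 5 of the 12 such fits (limma adjusted p up to 0.0899).

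The 5 chaperone and folding genes with no call in the 10 comparisons were Canx, Pdia3, Dnajb9, Sdf2l1 and Creld2. Canx, the membrane-bound partner of calreticulin, had signals of 3639 to 4569, and its genotype difference was -0.00 ± 0.05 (limma adjusted p = 0.978). Dnajb9, a co-chaperone of BiP, had signals of 1021 to 1292, and a genotype difference of -0.02 ± 0.06 (limma adjusted p = 0.802) with a 95% interval of -0.14 to 0.09. Sdf2l1, a partner of BiP and its co-chaperones, had low signals of 29.7 to 79.4, with a genotype difference of -0.13 ± 0.18 (limma adjusted p = 0.636). Pdia3, a disulfide isomerase that works with the lectin chaperones, had signals of 2005 to 2445, and Creld2, another ER folding factor, 91.5 to 185.

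The ER stress element (CCAAT, any 9 bases, then CCACG), searched on both strands, at which ATF6 acts with the factor NF-Y, stood in 6 of the 35 promoters (17.1%), namely Calr, Canx, Creld2, Hsp90b1, Hspa5 and Pdia6, and in those of 0.137% of all genes. All 6 are ER chaperones or folding enzymes, and none held the C/EBP-ATF element. The element TGACGTGG, known as the unfolded protein response element, was found in 0 of 35 members and 0.714% of all genes. Hspa5 holds the stress element 65 bases before the start, and Hsp90b1 at 212 and 107 bases before it. Their promoters are shown because both genes were lower in KD cells while neither was called in a response to IL-1b. Fixed letters are in capitals, as the reverse complement where the match is on the other strand, and the windows are chr2:34771840-34772139, plus strand for Hspa5 and chr10:86705395-86705694, minus strand for Hsp90b1.
Hspa5: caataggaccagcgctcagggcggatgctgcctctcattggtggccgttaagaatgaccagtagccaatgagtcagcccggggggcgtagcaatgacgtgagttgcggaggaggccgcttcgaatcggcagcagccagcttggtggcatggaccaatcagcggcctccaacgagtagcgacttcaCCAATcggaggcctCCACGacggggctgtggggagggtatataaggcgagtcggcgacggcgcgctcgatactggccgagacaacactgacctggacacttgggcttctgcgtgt
Hsp90b1: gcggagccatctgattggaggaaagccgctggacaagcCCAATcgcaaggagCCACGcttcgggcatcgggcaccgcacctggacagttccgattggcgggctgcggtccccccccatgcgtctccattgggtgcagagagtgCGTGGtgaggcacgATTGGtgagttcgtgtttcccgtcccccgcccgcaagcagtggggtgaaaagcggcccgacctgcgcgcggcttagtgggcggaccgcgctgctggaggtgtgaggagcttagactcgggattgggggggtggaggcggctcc

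Of the 6 members with the stress element, Hspa5, Hsp90b1, Calr and Pdia6 were lower in KD cells on average, while Canx and Creld2 were not called. This share, too, was similar to that of all members (25 of 38).

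Of the 3 genes of ER-associated degradation, Herpud1 was lower in KD cells. It encodes a membrane scaffold of the ubiquitin ligase complex that clears misfolded proteins. Herpud1 had signals of 245 and 307 in unstimulated KD cells, 278 and 282 at 1 h and 292 and 293 at 4 h, against 332 and 358 in unstimulated WT cells, 318 and 368 at 1 h and 407 and 396 at 4 h. All KD arrays lay below all WT arrays, and the 4 h WT arrays were the highest. Herpud1 had a genotype difference of -0.35 ± 0.07 (limma adjusted p = 0.00157) and no called response. Edem1, which hands misfolded glycoproteins on for disposal, had signals of 182 to 251 and a genotype difference of 0.04 ± 0.08 (limma adjusted p = 0.759). Another probe set of Edem1 gave -0.61 ± 0.11 (limma adjusted p = 0.000388), so that the mean over probe sets was -0.28 (limma adjusted p = 0.0111). Sel1l, the adaptor of that ligase, had signals of 1422 to 1797 and a genotype difference of 0.04 ± 0.06 (limma adjusted p = 0.653).

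In 4 further lists of the same pathways, with 96 tested genes, 7 were higher and 40 lower in KD cells on average, or 7.29% and 41.7%, against 18.2% and 13.7% of all genes. Of 26 further ATF4 targets and amino acid genes 2 were higher and 20 lower, with a median of -0.37. The 5 with the biggest differences were Cth, an enzyme that makes cysteine (-1.33 ± 0.10), Slc1a5, a glutamine carrier (-1.04 ± 0.23), Stc2, a secreted glycoprotein gene (-0.95 ± 0.26), Atf3, a stress-induced transcription factor (-0.94 ± 0.12), and Vegfa, an angiogenic factor (-0.87 ± 0.07). The signals of Slc1a5 were low, at 6.6 to 36.4 on KD arrays and 44.4 to 74.3 on WT arrays. Those of Stc2 were 2.8 to 27.9 and 17.8 to 75.8, and its call was lost with the mean over probe sets. Of 19 aminoacyl-tRNA synthetases, which charge tRNAs with amino acids, 0 were higher and 10 lower (median -0.34), led by Iars at -0.48 ± 0.09 and Eprs at -0.46 ± 0.07. Of 13 genes for eIF2, its kinases and its exchange factor 1 was higher (Eif2ak2, the kinase PKR, 0.36 ± 0.08) and 4 lower. The biggest differences were those of Eif2s3x, an eIF2 subunit gene, at -0.63 ± 0.07, and of Ppp1r15b, a relative of GADD34, at -0.44 ± 0.05. Of 38 further unfolded protein response genes 4 were higher and 6 lower, with Crebrf at 0.83 ± 0.06 and Creb3l1 at -0.56 ± 0.12. Their median was -0.03, against 0.03 over all genes, and the share that was lower was near the 13.7% of all genes. This list held 6 of the 40 lower genes, and the other lists held the rest.

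The same lists at 1 h gave 2 higher and 10 lower of 96 in KD cells, and 4 higher and 6 lower in WT cells. That is 12.5% in KD cells, against 3.28% of all genes, and 10.4% in WT cells, against 7.44% of all genes. Atf3 rose in both genotypes, by 1.05 ± 0.20 in KD cells (limma adjusted p = 0.00838) and by 2.40 ± 0.20 in WT cells (limma adjusted p = 5.48e-07). Cth fell in both, by 0.68 ± 0.17 in KD cells (limma adjusted p = 0.0353) and by 0.81 ± 0.17 in WT cells (limma adjusted p = 0.00585). The call of Atf3 in KD cells was lost without a variance trend, and without unstimulated KD replicate 1 or 1 h KD replicate 2 (limma adjusted p up to 0.137). That of Cth was lost in 8 of the 12 such fits in KD cells (limma adjusted p up to 0.187), and in WT cells without unstimulated WT replicate 2 or 1 h WT replicate 2 (limma adjusted p up to 0.058). At 4 h against unstimulated cells the lists gave 1 higher and 1 lower in KD cells, and 5 higher and 5 lower in WT cells, which is 2.08% in KD cells, against 0.618% of all genes, and 10.4% in WT cells, against 12% of all genes. From 1 h to 4 h they gave 4 higher and 1 lower in KD cells, and 14 higher and 4 lower in WT cells, which is 5.21% in KD cells, against 4.04% of all genes, and 18.8% in WT cells, against 19% of all genes. The WT shares at 4 h and from 1 h to 4 h were no larger than those of all genes. Among unstimulated cells 3 were higher and 17 lower in KD than in WT (20.8%, against 14.3% of all genes).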

How the data were processed

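Gene expression was measured on 12 arrays of mouse embryonic fibroblasts, 2 per group. The deposited values are MAS5 signals (a summary intensity per probe set) on a linear scale, per the submitters' processing notes, and the version of MAS5 is not given in the sources used here. Their mean with 2% trimmed at each end is 150 on every array, so differences in total mRNA per cell are removed. RNA was extracted with RNeasy and labelled with NuGEN Ovation, per the labels' protocols.

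Signals were taken as log2(signal + 8). Probe sets under 25.5, the median of all values, on all arrays or all but 1 were left out, and the probe set with the highest mean signal stood for each gene, which left 12456 genes. Group means were fitted with limma 3.58.1 in R 4.3.3 (6 residual degrees of freedom, variance trend), with Benjamini-Hochberg adjustment within each of 10 comparisons. The fit was tested on simulated data. Promoter sequences are RefSeq's, on GRCm38.p6. Array values were printed for each member called in at least 1 comparison and for Atf6. Further lists name up to 5 called genes per comparison. The members, lists and tests were chosen with earlier results of these data known. Of 103 genes in the further lists, 99 were matched and 96 tested. The number of arrays limits the precision. Alternatives were other pseudocounts, filters, scalings, probe set rules and fits, a replicate block, and leaving out each array.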

Additional observations from a re-analysis of the deposited data

Results flagged for a closer look

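The limma test of the response itself (KD minus WT) called 5 genes of the further lists. At 1 h that was 1 of 96 (1.04%, against 0.49% of all genes), and at 4 h 4 of 96 (4.17%, against 3.03% of all genes). The 4 h share was near that of all genes, and the 1 h share rests on 1 gene. At 1 h, Atf3 had a difference of -1.34 ± 0.28 (SE; limma adjusted p = 0.043), with responses of 1.05 ± 0.20 in KD cells and 2.40 ± 0.20 in WT cells. It kept the call in 3 of the 12 fits that left out 1 array (limma adjusted p up to 0.265), and lost it in 5 of the 11 other alternatives: pseudocount 1, no filter, quantile normalization, no variance trend, and the compared groups alone.

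At 4 h, Sqstm1, which encodes the autophagy receptor p62, had a difference of -0.80 ± 0.18 (limma adjusted p = 0.0174), with responses of -0.13 ± 0.12 in KD cells and 0.67 ± 0.12 in WT cells. Nfe2l2, which encodes the oxidative stress factor NRF2, had one of -0.79 ± 0.19 (limma adjusted p = 0.0269), with responses of -0.09 ± 0.13 in KD cells and 0.69 ± 0.13 in WT cells. Ero1a, an ER oxidase gene, had one of -0.55 ± 0.14 (limma adjusted p = 0.0358), with -0.24 ± 0.10 in KD cells and 0.31 ± 0.10 in WT cells. Shmt1, the cytosolic relative of Shmt2, had a difference of 1.03 ± 0.25 (limma adjusted p = 0.0318), from responses of 0.53 ± 0.18 in KD cells and -0.50 ± 0.18 in WT cells that were themselves not called. Sqstm1 and Shmt1 each kept the call in 8 of the 12 fits (limma adjusted p up to 0.0958 and 0.163), and Nfe2l2 and Ero1a each in 6 (limma adjusted p up to 0.138 and 0.177). Of the 11 other alternatives, Shmt1 lost the call in 6, Ero1a in 5, Nfe2l2 in 3 and Sqstm1 in 1, and the fit without a variance trend ended all of these calls.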

How the results depend on the processing

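The 25 members lower in KD cells on average stayed within 1.5 times that count under every alternative, between 23 and 26 when 1 array was left out. Smaller counts moved. With arrays centred on their median, 3 members were called in WT cells at 1 h, 1 in WT cells at 4 h, 9 between 4 h and 1 h in WT cells, 3 in KD cells at 1 h and 7 between unstimulated KD and WT cells. Without a variance trend these counts were 3, 0, 8, 0 and 7, and that between 4 h and 1 h in KD cells was 0. In fits of the compared groups alone, 4 were called in WT cells at 1 h, 0 in WT cells at 4 h, 1 in KD cells at 4 h, 8 between 4 h and 1 h in KD cells and 8 between unstimulated KD and WT cells. In WT cells at 4 h, 1 was called with no filter and 2 after quantile normalization. Where limma called 0, the unadjusted counts were not recomputed. The cause was not tested.

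Leaving out 1 array gave 3 to 9 in WT cells at 1 h, 1 to 5 at 4 h and 6 to 17 between them, 2 to 8 in KD cells at 1 h, 0 to 1 at 4 h and 2 to 7 between them, 2 to 14 between unstimulated KD and WT cells, and 0 to 2 for either response difference. Over single members and comparisons these fits ended 151 calls, added 49 and turned no direction; the other alternatives ended 121, added 29 and turned 2. Those 2 were Pdia6 at 0.00798 and Edem1 at -0.283 in the average of KD over WT, with the mean over probe sets. That setting also turned Derl2 to -0.119 (WT, 1 h), Mbtps1 to 0.188 (WT, 4 h), Shmt1 to -0.0527 (KD, 1 h) and Derl1 to 0.0738 (KD, 1 h).

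The replicate block called 8 members in WT cells at 1 h, 3 at 4 h and 15 between them, 6 in KD cells at 1 h, 0 at 4 h and 6 between them, 13 between unstimulated cells and 25 on average. Same-numbered arrays did not deviate together (correlations of -0.0314 to 0.0731 over 15 pairs of groups). This cannot show whether same-numbered samples shared a culture or a preparation, which the design does not name. Centring arrays moved the median over all genes to 0.10 in WT cells at 1 h, against -0.06 as deposited, to -0.13 for the response difference at 1 h, against 0.04, and to -0.04 for that at 4 h, against 0.10. Low signals, as of Slc7a11 and Sdf2l1, limit precision.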
